A study of Mus musculus with 10 samples.

Results

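Carbonic anhydrases are zinc enzymes that interconvert carbon dioxide and water with bicarbonate and a proton, and through this they set pH inside and outside the cell. Car2 and Car13 are cytosolic, Car9 and Car12 sit in the plasma membrane with the catalytic domain outside the cell, and Car6 is the secreted member of the family, best known from saliva. Car9 is a textbook target of the hypoxia-inducible factors, and Car12 is often found with it in epithelial tumours. In mouse, Car6 is also known to give an intracellular form from a transcript that begins within the gene, described as induced by stress through the transcription factor CHOP. The 5 genes Car2, Car6, Car9, Car12 and Car13 were taken by symbol from both expression tables, which list 17658 and 16719 genes, with 16 and 14 carbonic anhydrases among them. Car6 was chosen by its measured log2 fold change with T-5224, the largest rise of all genes, so the values of these 5 genes in that comparison are given as a description, with no test.

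The cells were ASZ001, a mouse basal cell carcinoma line that the study describes as resistant to inhibitors of Smoothened, the Hedgehog pathway transducer. All cultures were kept in low serum for 24 h. One experiment compared 3 libraries from cells given 10 uM SB431542, an inhibitor of the TGFß receptor kinase ALK5, with 3 libraries from cells given the vehicle DMSO. The other compared 2 libraries from cells given 20 uM T-5224, an inhibitor of the transcription factor AP-1, with 2 further DMSO libraries. All groups are the same single line at 1 dose and 1 time, the labels call the replicates biological, and no library is shared between the experiments. Each value is an RPKM, the reads on a gene per kilobase of its length, scaled to the reads of the library. Levels can therefore be compared roughly between genes within a table. Some genes differed widely between the DMSO controls of the 2 experiments. Eno1 averaged 413 RPKM in those for SB431542 and 97.7 RPKM in those for T-5224, and Slc2a1 125 and 573 RPKM. The cause of such differences was not tested. The tables were normalized separately, so an inhibitor was set only against the DMSO libraries listed with it, and the difference between the effects of the 2 inhibitors was not tested.

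Depth was estimated at 31.9 M to 51.6 M reads per library. Of the markers of basal keratinocytes and basal cell carcinoma, the keratins Krt5, Krt14 and Krt17 were the most abundant with DMSO, whereas the Hedgehog targets Gli1 and Ptch1 were low, with means of 2.40 and 2.05 RPKM in the DMSO controls for SB431542 and 5.02 and 1.95 RPKM in those for T-5224, and Hhip was near 0 or not listed. The summed level of these markers was 10770 to 10970 RPKM with DMSO against 7489 to 8037 with SB431542. In the other experiment it was 14874 to 15638 with DMSO against 2287 to 2393 with T-5224. With T-5224, 8 of 9 tested markers fell, beside 39.4% of all genes tested, and Ptch1 rose (log2 fold change 0.34). With SB431542, 4 of 9 fell, 1 rose (Krt15) and 4 did not pass the test, beside 10.0% of all genes called lower and 10.2% called higher. T-5224 moved most of the transcriptome: limma called 79.7% of 10809 genes changed (adjusted p under 0.05) and 21.0% changed past 2-fold, against 20.2% and 0.812% of 10842 genes with SB431542. In a bulk culture, fewer cells of a type and less RNA per cell cannot be told apart.

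The sequence before the start of a gene is shown for the pair of members with the largest relative differences with T-5224. GENCODE annotates 2 protein-coding transcripts of Car6, which lies on the minus strand of chromosome 4 (mm9 chr4:149561124-149575441). The longer, Car6-001, has 8 exons, and the shorter, Car6-002, has 7 exons, of which 6 are identical to exons of the longer, and its start lies 2862 bases inside the gene. The first exon of the longer transcript holds 73 coding bases. RPKM were given per gene, so the values below do not separate these transcripts. The 250 bases before each Car6 start are from the mm9 genome, and the window before the start of Car9 is from RefSeq on GRCm38.p6. RefSeq windows were matched for Car6, Car9 and Car12 of the 5 genes, and not for Car2 and Car13. Capitals mark matches, on either strand, to 4 short motifs: the AP-1 site TGACTCA, the composite ATF4 site TGATGNAA, the core of the hypoxia-inducible factor site ACGTG, and the C/EBP and CHOP site TGCAAT.
Car6-001, mm9 chr4:149575442-149575691, minus strand: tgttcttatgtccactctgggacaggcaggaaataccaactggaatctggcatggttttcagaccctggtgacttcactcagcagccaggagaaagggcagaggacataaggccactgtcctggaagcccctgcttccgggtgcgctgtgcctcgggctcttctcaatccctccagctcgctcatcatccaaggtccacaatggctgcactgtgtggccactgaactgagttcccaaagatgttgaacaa
Car6-002, mm9 chr4:149572580-149572829, minus strand: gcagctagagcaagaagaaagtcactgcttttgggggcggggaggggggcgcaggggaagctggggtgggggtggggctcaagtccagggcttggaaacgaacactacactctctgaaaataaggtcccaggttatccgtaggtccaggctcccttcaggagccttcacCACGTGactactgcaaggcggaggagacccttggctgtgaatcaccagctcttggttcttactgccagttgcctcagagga
Car9, GRCm38.p6 chr4:43506776-43507025, plus strand: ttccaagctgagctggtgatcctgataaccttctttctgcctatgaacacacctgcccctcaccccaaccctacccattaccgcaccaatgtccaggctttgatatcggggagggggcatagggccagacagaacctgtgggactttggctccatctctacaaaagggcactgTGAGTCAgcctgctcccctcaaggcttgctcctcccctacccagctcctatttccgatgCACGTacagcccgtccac

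The window of Car6-001 held none of the 4 motifs. The window of Car6-002 held CACGTG, which reads as the hypoxia core on both strands in overlapping matches that begin 81 and 80 bases before the start. The Car9 window held the AP-1 site, as TGAGTCA, 77 bases before the start and the hypoxia core 18 bases before it. The RefSeq window of Car6 held the hypoxia core on both strands in CACGTG, beginning 149 and 148 bases before its start, and that of Car12 held none of the 4. This RefSeq window opens with the bases that end the Car6-001 window. Its CACGTG therefore lies after the start of Car6-001, outside the window printed for it, and whether it is counted depends on the start chosen. Of 45982 GENCODE windows of 250 bases in mm9, 3.7% held the AP-1 site, 2.8% the ATF4 site, 17.9% the hypoxia core and 6.3% the C/EBP site, and of 32851 RefSeq windows 4.5%, 3.5%, 16.6% and 7.3% did. These matches are letters in a window, and binding at them was not measured here.

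Without inhibitor the 5 genes spanned a wide range of levels. Car13 was the most abundant and Car12 the second in all 5 DMSO libraries, with no overlap between them. Car2, Car6 and Car9 lay near or under 1 RPKM. Among the DMSO controls for SB431542, Car2 was above Car6 and Car6 above Car9 with no overlap, whereas among those for T-5224 the ranges of Car6 and Car9 overlapped. With T-5224 the order was Car6, then Car12 and Car13 with overlapping ranges, then Car2 and then Car9.

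**Figure D1:**
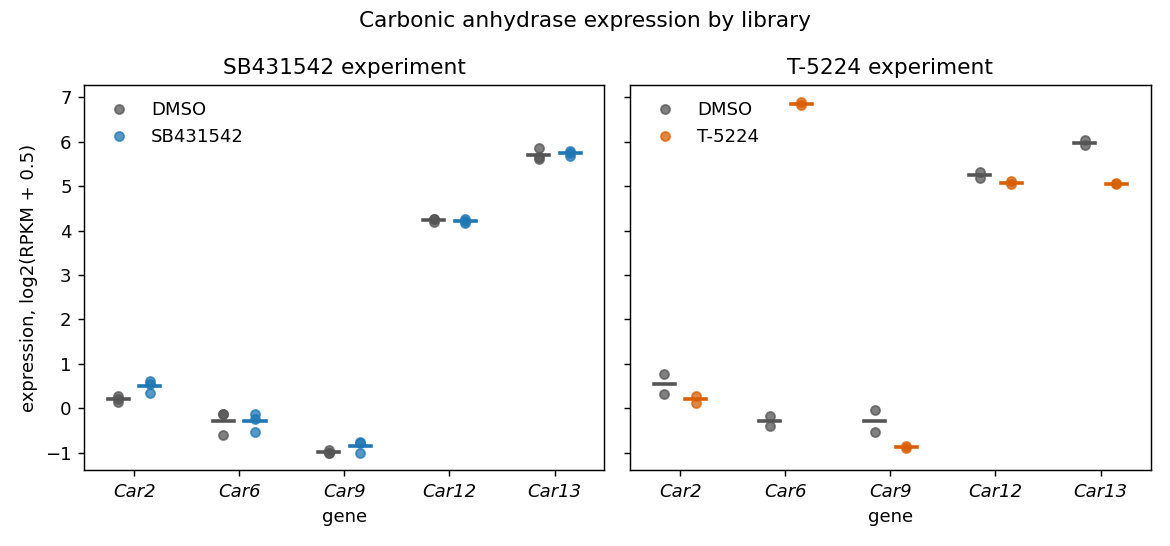
Expression of the 5 carbonic anhydrases in every library, as log2(RPKM + 0.5) on the vertical axis, with a point per library, a bar at the group mean, DMSO in grey, SB431542 in blue and T-5224 in orange. Car6 sits with the low genes in 8 libraries and above Car13 and Car12 in both T-5224 libraries.

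Car6 was barely expressed unless T-5224 was present. In the T-5224 experiment its level was 0.387 and 0.26 RPKM in the DMSO libraries and 117.784 and 112.93 RPKM in the T-5224 libraries. Both treated libraries were far above both controls. At the estimated depth and for the longer transcript these levels are about 19 and 16 reads against 9527 and 8738 reads.

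The mean went from 0.324 ± 0.0898 to 115 ± 3.43 RPKM (SD, n = 2 each), and the ratio of the means was 356.6, with ratios between single libraries from 291.8 to 453.0. On the log2(RPKM + 0.5) scale, which understates changes of low genes, the difference was 7.14 (SE 0.09). It was the largest rise among all genes tested, as its choice requires, ahead of Trib3 at 6.15. Its level stood above 27.4 to 29.7% of the listed genes with DMSO and above 96.9 to 97.0% of them with T-5224. Car6 passed the limit of 1 RPKM on the mean over the table only through the T-5224 libraries.

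With SB431542 no such rise was seen. Car6 was 0.422, 0.416 and 0.162 RPKM in the DMSO libraries and 0.42, 0.35 and 0.192 RPKM in the SB431542 libraries. The groups overlapped, and the lowest library of each group came to about 10 and 15 reads. The log2 difference was -0.02 (SE 0.16, 95% interval -0.41 to 0.38, limma adjusted p = 0.967 in a fit with no limit on low values).

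Salivary acinar markers stayed low where Car6 was high. Of the 10 markers, 3 were listed in the T-5224 table, their summed level was 3.61 RPKM in both DMSO libraries and 1.29 and 1.70 RPKM with T-5224, and only Aqp5, a water channel, was high enough to be tested (log2 fold change -1.16). In the table for SB431542, 5 were listed, 4 of them under 1 RPKM in every library, and the sum was 4.75 to 5.53 RPKM with DMSO and 8.68 to 10.2 RPKM with SB431542, where Aqp5 rose (log2 fold change 0.81).

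Car13, a cytosolic enzyme, was the most abundant member in cells without inhibitor. It was 65.332 and 59.936 RPKM with DMSO and 32.502 and 32.927 RPKM with T-5224. Both treated libraries were below both controls. The means were 62.6 ± 3.82 and 32.7 ± 0.301 RPKM (SD, n = 2 each), a ratio of 0.522 and a log2 difference of -0.93 (SE 0.06). With quantile normalization the difference was -1.04, which is past 2-fold.

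With SB431542 Car13 kept close to its control level. The DMSO libraries held 57.429, 50.188 and 48.137 RPKM and the SB431542 libraries 55.135, 53.095 and 51.139 RPKM. The treated range fell inside the control range. The log2 difference was 0.04 (SE 0.07, 95% interval -0.14 to 0.21, limma adjusted p = 0.758), and it was -0.016 without DMSO replicate 3.

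Car2, the widespread high-activity cytosolic enzyme, was low in these cells. With T-5224 it was 0.712 and 0.59 RPKM against 1.203 and 0.757 RPKM with DMSO. The treated libraries were below the controls, by a log2 difference of -0.35 (SE 0.17), and the nearest values of the groups differed little. The difference was -0.13 without the DMSO library at 1.203 RPKM and -0.57 without the other. With SB431542 it was 0.957, 1.023 and 0.779 RPKM against 0.66, 0.713 and 0.606 RPKM. All 3 treated libraries were above all 3 controls, as for 23.9% of all genes tested, by a log2 difference of 0.29 (SE 0.09, 95% interval 0.07 to 0.51). This did not pass the test (limma adjusted p = 0.104 in a fit with no limit on low values).

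Car12, a transmembrane enzyme with its catalytic side outside the cell, was the second most abundant member. With T-5224 it was 34.304 and 32.46 RPKM against 35.9 and 39.617 RPKM with DMSO. The treated libraries were below the controls, with a log2 difference of -0.17 (SE 0.06) and a ratio of the means of 0.884. With SB431542 it was 18.199, 18.571 and 17.468 RPKM against 17.808, 18.615 and 18.746 RPKM. The groups overlapped, and the log2 difference was -0.02 (SE 0.05, 95% interval -0.15 to 0.10, limma adjusted p = 0.776).

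Car9, the other transmembrane enzyme, was close to undetected. Its level was 0.191 and 0.48 RPKM in the DMSO controls for T-5224 and 0.059 and 0.041 RPKM with T-5224. The treated libraries were below the controls, at about 6 and 4 reads against 12 and 38 reads. The ratio of the means was 0.149, and the log2 difference was -0.58 with a pseudocount of 0.5 and -1.46 with 0.1. With the pseudocount of 0.5 it was -0.33 without the DMSO library at 0.48 RPKM. In the SB431542 experiment it was 0, 0 and 0.025 RPKM with DMSO and 0, 0.086 and 0.093 RPKM with SB431542. No library there held more than about 9 reads, and the log2 difference of 0.13 (SE 0.07) did not pass the test (limma adjusted p = 0.288 in a fit with no limit on low values).

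**Figure D2:**
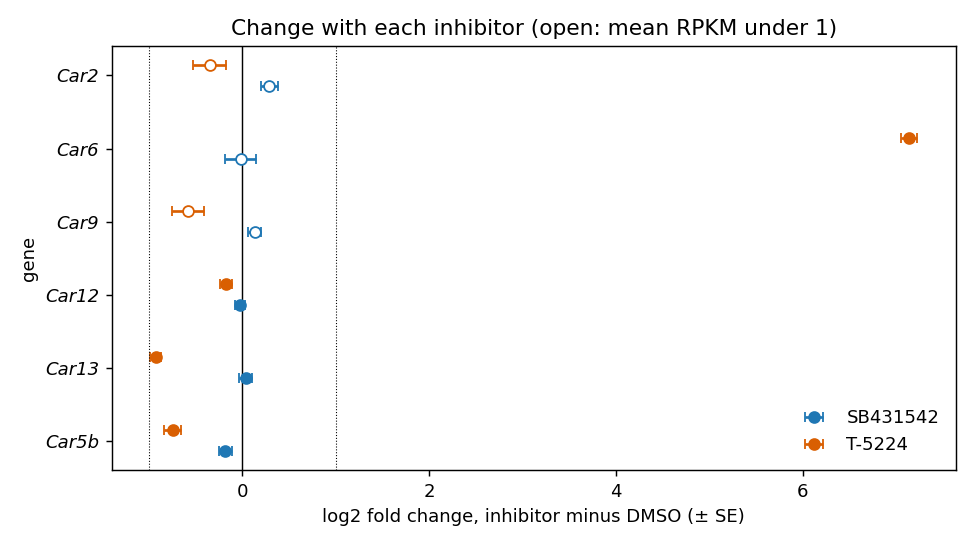
Log2 fold change of each member and of Car5b, inhibitor minus DMSO, with bars of 1 SE, SB431542 in blue and T-5224 in orange, open points for genes whose mean was under 1 RPKM and dotted lines at 2-fold. Car6 with T-5224 lies at 7.14, and every other point lies between -0.93 and 0.29.

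Of the 5 members, 2 could be tested with SB431542 (Car12 and Car13), and limma called 0 of them changed, beside the 20.2% of all genes tested, and 0 past 2-fold in either direction, beside 0.581% lower and 0.231% higher. Neither passed an unadjusted p of 0.05. Car2 was the 1 member of 5 whose SB431542 groups did not overlap, beside 45.1% of all genes tested. With T-5224, 3 members passed the limit on low values (Car6, Car12 and Car13), 1 was past 2-fold, beside 21.0% of all genes tested, and all 5 had groups that did not overlap, 4 of them below DMSO and 1 above, beside 44.5% below, 45.1% above and 89.7% in either direction. Since the choice of Car6 used that comparison, nothing is read from these counts.

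The other carbonic anhydrases were few. Car5b, a mitochondrial enzyme, was the only one of 11 that was high enough to be tested. With T-5224 it fell from 5.07 and 5.186 RPKM to 2.953 and 2.77 RPKM, a log2 fold change of -0.74 (SE 0.09, limma adjusted p = 1.63e-05). With SB431542 it was 5.595, 6.152 and 6.314 RPKM against 7.06, 6.643 and 6.925 RPKM with DMSO. All 3 treated libraries were below the controls, as for 21.3% of all genes tested, but the log2 difference of -0.18 (SE 0.07) did not pass the test (limma adjusted p = 0.101). Car1, Car3, Car4, Car5a, Car7, Car8, Car10, Car11, Car14 and Car15 stayed under 1 RPKM in every library in which they were listed, and Car1 and Car4 were not listed in the T-5224 table.

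Summed over the family, carbonic anhydrase mRNA went from 109.702 and 108.046 RPKM with DMSO to 189.75 and 183.27 RPKM with T-5224. Car6 made up 0.353 and 0.241% of this sum with DMSO and 62.1 and 61.6% with T-5224. Car13 made up 59.6 and 55.5% with DMSO and 17.1 and 18.0% with T-5224, and Car12 32.7 and 36.7% against 18.1 and 17.7%. In the SB431542 experiment the sum was 75.8 to 84.9 RPKM with DMSO and 76.7 to 81.7 RPKM with SB431542, and Car13 made up 63.5 to 67.6% of it in all 6 libraries.

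**Figure D3:**
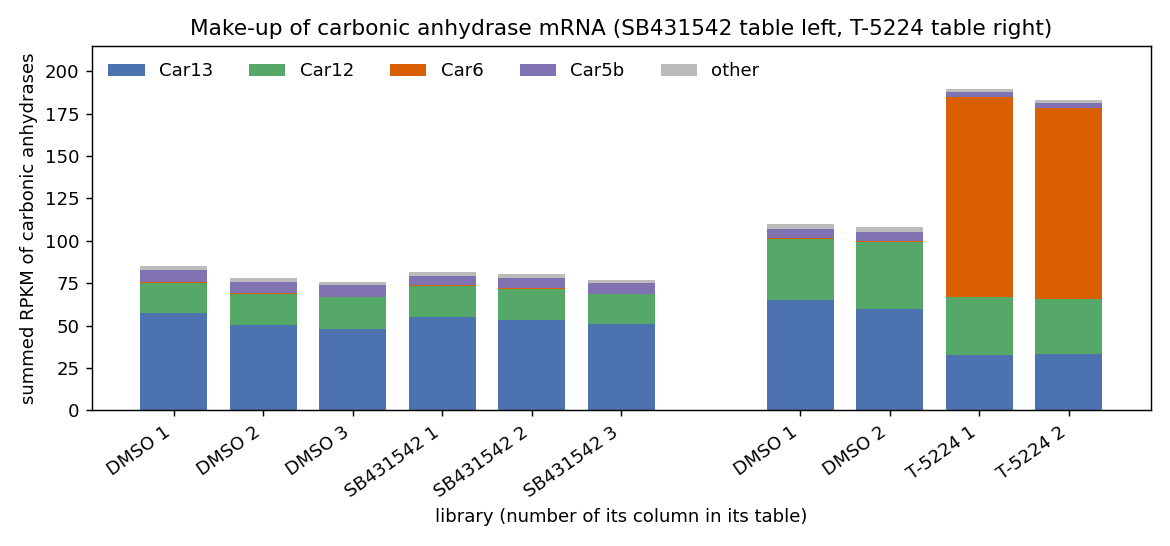
Summed RPKM of all listed carbonic anhydrases in each library, stacked by gene, with the SB431542 experiment on the left and the T-5224 experiment on the right. Car13 is the largest piece in 8 libraries, and Car6 is 62.1 and 61.6% of the bar in the T-5224 libraries.

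To see which genes moved most like Car6, each gene was centred on the DMSO mean of its own table, and the root mean square distance to Car6 was taken over the 10 libraries for 11165 genes. Trib3 was nearest (distance 0.60 on the log2 scale), then Il23a (0.66), Atf3 (0.89), Steap1 (0.92) and Ptgs2 (0.93). With T-5224 the log2 fold changes were 6.15 for Trib3, 5.82 for Il23a, 5.20 for Atf3, 5.21 for Steap1 and 5.11 for Ptgs2. With SB431542 those of the same genes were 0.61, -0.22, -0.11, 0.42 and -0.05. The distance to Car6 is set mainly by the T-5224 libraries, where the differences are far larger than elsewhere. Since Car6 was chosen by its rise in those libraries, genes with large rises there come out nearest.

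**Figure D4:**
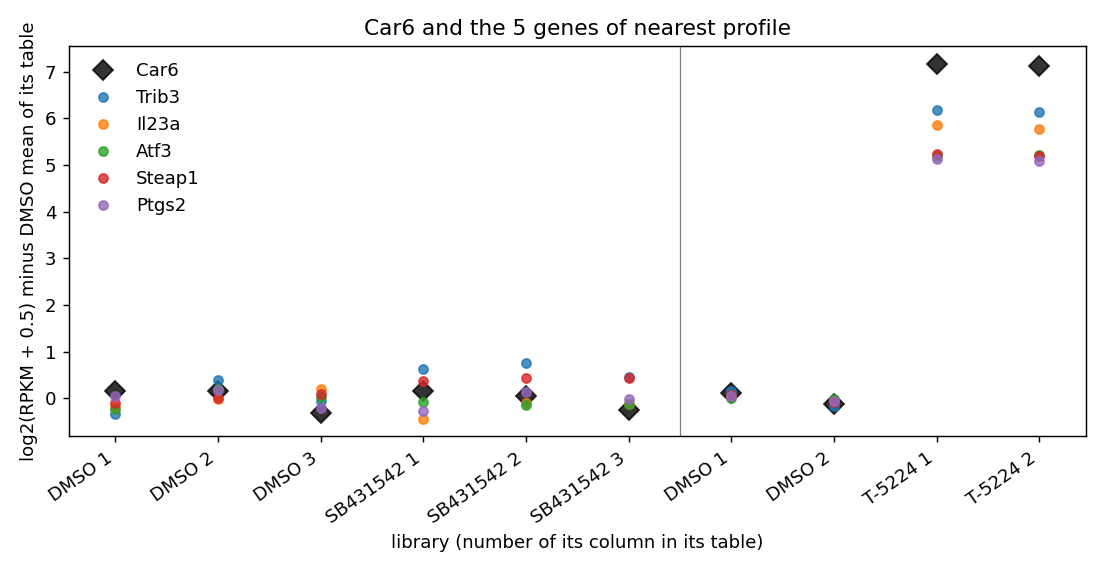
Log2(RPKM + 0.5) minus the DMSO mean of the same table for Car6 (black diamonds) and the 5 genes nearest to it (circles), in the 10 libraries. All 6 genes lie above 5 in both T-5224 libraries, and Car6 is the highest in both.

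The other members had close neighbours of much smaller change. Nearest to Car13 were Hipk3 (distance 0.051), Cox7b and Ppp1r7, whose log2 fold changes with T-5224 were -0.91, -0.97 and -0.86. Nearest to Car12 were Plbd2 (distance 0.029), Zfp516 and Tsc2, with -0.21, -0.19 and -0.23. Nearest to Car2 were Zbtb12, Pgm2l1 and Kdelc2, and nearest to Car9 were Atp5l, Kyat3 and Zfp296, at distances of 0.094 to 0.101. Car9 held no more than about 38 reads in any library, so its nearest profiles rest on few reads and on the pseudocount.

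The tested genes beside Car6 on chromosome 4 did not rise with it. Slc2a5, a fructose transporter whose gene ends 42.8 kb away, fell with T-5224 from 2.29 to 0.339 RPKM (log2 fold change -1.73, limma adjusted p = 3.74e-07) and fell with SB431542 as well (-0.60, adjusted p = 0.00344). On the other side Eno1, the glycolytic enzyme enolase 35.4 kb away, fell with T-5224 (-0.58, limma adjusted p = 1.46e-05), as did Rere, a transcriptional corepressor (-0.41, adjusted p = 9.09e-05). With SB431542 Eno1 (0.19, limma adjusted p = 0.0927) and Rere (0.08, adjusted p = 0.706) did not pass the test. Slc2a7, the nearest gene, was not among the genes tested in either experiment.

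Car9 lies on the plus strand of the same chromosome (mm9 chr4:43519838-43526601). Tpm2, a tropomyosin gene 1.0 kb from it, fell with both inhibitors, by 1.09 on the log2 scale with T-5224 and by 0.51 with SB431542 (limma adjusted p = 4.96e-09 and 0.0499). Tln1, which encodes the integrin adaptor talin, fell with T-5224 (log2 fold change -0.49), and Ccdc107 rose (1.11). Car2 (mm9 chr3:14886426-14900769) and Car13 (mm9 chr3:14641727-14663002) lie on the plus strand of chromosome 3 with only Car1 and Car3 as protein-coding genes between them. Beside Car13, 1810022K09Rik fell with T-5224 (log2 fold change -1.07, limma adjusted p = 4.14e-06), and the cell cycle factor gene E2f5 did not pass the test (-0.11, adjusted p = 0.363). Beside Car12, on the plus strand of chromosome 9 (mm9 chr9:66561493-66614652), Aph1b, which encodes a subunit of gamma-secretase, fell with both inhibitors (log2 fold change -0.79 with T-5224 and -0.51 with SB431542), and the deubiquitinase gene Usp3 fell with SB431542 (-0.43).

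Transport genes were read as 4 lists, taken by family name and not by what each gene carries. The lists were the SLC4 bicarbonate transporters, the SLC26 anion exchangers, the SLC9 sodium-proton exchangers and the lactate transporters with their chaperones. They were counted together with Car5b, the 1 other carbonic anhydrase tested. With T-5224, 8 of these 17 genes fell and 6 rose, beside 39.4% and 40.3% of all genes tested, and the median log2 fold change was -0.28, beside 0.00 over all genes. Among the 6 rises, Slc4a11, Slc26a11 and Slc9a9 could be tested only because they were high with T-5224, so they could enter only as rises. The largest rise was that of Slc4a11, a transporter of the bicarbonate family, from 0.503 ± 0.116 to 6.91 ± 0.542 RPKM (SD, n = 2 each, log2 fold change 2.89, limma adjusted p = 1.72e-09). Slc16a1, which encodes the lactate and proton carrier MCT1, rose from 18.4 ± 1.73 to 65.7 ± 1.49 RPKM (1.81, adjusted p = 7.21e-10). Slc16a7, which encodes the related carrier MCT2, fell from 3.40 to 0.831 RPKM (-1.55, adjusted p = 3.09e-07).

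Also past 2-fold with T-5224 were the sulfate transporter Slc26a2 (log2 fold change -1.22), Slc26a11 (1.44) and the endosomal exchanger Slc9a9 (1.36). Slc4a11, Slc26a11 and Slc9a9 averaged under 1 RPKM with DMSO and passed the limit on low values only through the T-5224 libraries. The most abundant transport genes with DMSO were the MCT chaperones Bsg and Emb and the chloride-bicarbonate exchanger Slc4a2. With T-5224 they fell from 338 to 267 RPKM (log2 fold change -0.34), from 163 to 101 RPKM (-0.69) and from 79.3 to 49.3 RPKM (-0.68), with limma adjusted p of 0.000104, 3.26e-07 and 3.54e-07.

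With SB431542, 2 of the 17 genes (the transport genes tested and Car5b) fell and 2 rose, all 4 of them transport genes, beside 10.0% and 10.2% of all genes tested, and the median log2 fold change was 0.09, beside 0.01 over all genes. Slc16a1 rose from 28.2 ± 2.41 to 43.7 ± 1.17 RPKM (SD, n = 3 each, log2 fold change 0.62, limma adjusted p = 0.00178), and Emb fell from 132 to 89.5 RPKM (-0.56, adjusted p = 0.000672). Slc4a7, a sodium-bicarbonate cotransporter named after its values were seen, rose as well (0.23, limma adjusted p = 0.049). The count of 4 was 2 without DMSO replicate 2 or without any 1 of the SB431542 libraries.

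Genes known to be induced by hypoxia, the class to which Car9 belongs, mostly fell with T-5224. Of 15 tested, 10 fell and 4 rose, beside 39.4% and 40.3% of all genes tested, with a median log2 fold change of -0.85. Ndufa4l2, a mitochondrial protein gene, went from 20.57 and 60.769 RPKM to 0.703 and 0.524 RPKM (-5.02, limma adjusted p = 9.53e-08), and Egln3, which encodes an oxygen-sensing prolyl hydroxylase, from 21.941 and 22.305 RPKM to 1.87 and 2.171 RPKM (-3.17, adjusted p = 4.85e-11). Vegfa, the endothelial growth factor gene, rose (1.36), as did Pfkfb3, a regulator of glycolysis (0.76). With DMSO in the SB431542 experiment, Ndufa4l2 was 0.909 to 1.43 RPKM and Egln3 4.927 to 5.214 RPKM, below the DMSO controls for T-5224. Pgk1 differed the other way, with means of 304 RPKM there and 28.1 RPKM in the DMSO controls for T-5224. The falls with T-5224 thus start from control levels that the 2 experiments did not share, and the cause was not tested.

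Of 6 regulators of the pathway, 5 fell with T-5224, beside 39.4% of all genes tested, among them Epas1, which encodes HIF-2α, from 23.0 to 2.30 RPKM (log2 fold change -3.07, limma adjusted p = 7.37e-11), and the asparaginyl hydroxylase gene Hif1an (-0.77). With SB431542, 4 of 14 hypoxia-inducible genes rose, led by Ankrd37 (0.68) and Egln3 (0.43), 1 fell (the glucose transporter gene Slc2a1, -0.34), and 9 did not pass the test, beside 10.2% of all genes called higher and 10.0% called lower. Of the regulators Hif1a (-0.44) and Epas1 (-0.32) fell with SB431542, again beside 10.0% of all genes, and 4 of 6 did not pass the test.

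Genes of the CHOP and ATF4 stress pathway were read because of the known stress form of Car6. The list was written with earlier results of these data known. With T-5224, 13 of 14 rose and 0 fell, 12 of them past 2-fold, beside 40.3% of all genes called higher and 10.4% called higher past 2-fold. The median log2 fold change was 3.13. Trib3, a pseudokinase gene, went from 7.977 and 6.313 RPKM to 547.552 and 531.169 RPKM (limma adjusted p = 4.52e-13), and Atf3, a stress-induced transcription factor gene, rose from 2.25 to 101 RPKM (5.20, adjusted p = 2.73e-13). Ddit3, which encodes CHOP and is named here after its values were seen, was 18.044 and 20.851 RPKM with DMSO and 570.266 and 576.875 RPKM with T-5224 (4.85, adjusted p = 3.98e-13). Atf4, also named after its values were seen, rose from 46.1 to 533 RPKM (3.52, limma adjusted p = 6.7e-13).

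With SB431542, 4 of these 14 genes rose, 1 fell and 9 did not pass the test, beside 10.2% of all genes called higher and 10.0% called lower, with a median log2 fold change of 0.16. Psat1, an enzyme gene of serine synthesis, rose by 0.76 on the log2 scale (limma adjusted p = 0.00069), Trib3 by 0.61 (adjusted p = 0.047), and Nupr1, a stress-induced chromatin protein gene, fell by 1.11 (adjusted p = 0.00577). Ddit3 was 36.5 ± 3.48 RPKM with DMSO and 37.0 ± 1.13 RPKM with SB431542 (0.02, adjusted p = 0.869), whereas Atf4 rose from 114 to 167 RPKM (0.55, limma adjusted p = 0.00189). Whether the change of this pathway, or the lower keratinocyte markers in the same T-5224 libraries, has a part in the level of Car6 was not tested.

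**Figure D5:**
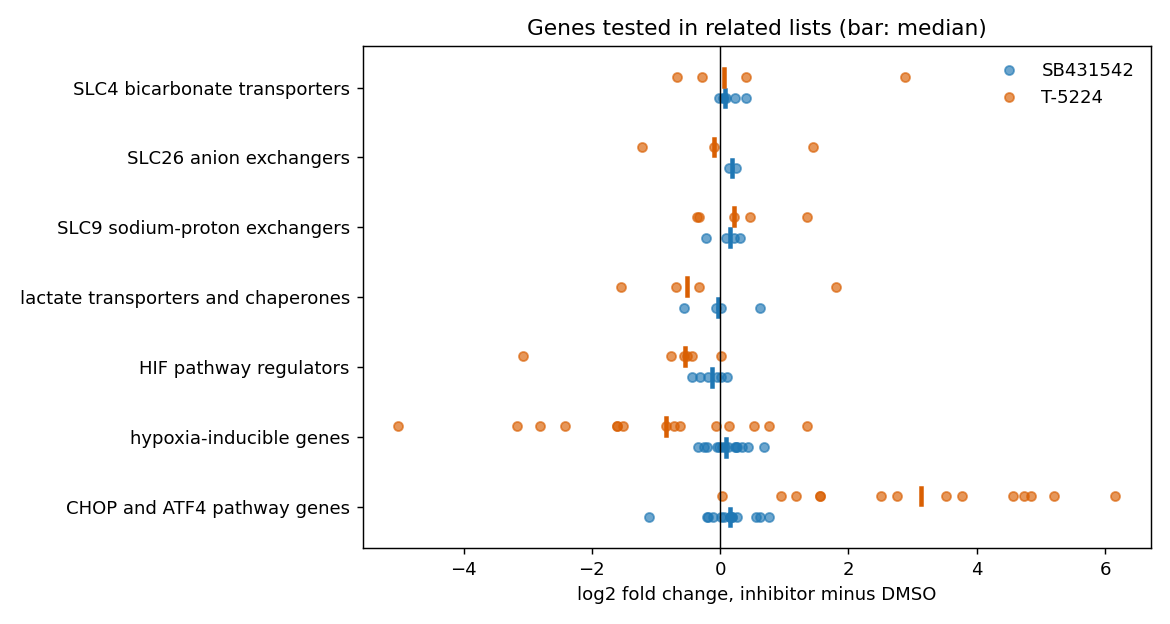
Log2 fold change of each gene tested in the transport, hypoxia and stress lists, inhibitor minus DMSO, with a point per gene, a bar at the median, SB431542 in blue and T-5224 in orange. The CHOP and ATF4 genes have a median of 3.13 with T-5224 and 0.16 with SB431542, and the hypoxia-inducible genes -0.85 and 0.09.

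Markers of other cell types summed to far less than the keratinocyte markers. Erythroid markers, which would accompany red cell carbonic anhydrases, summed to under 0.35 RPKM in every library. Of the fibroblast markers only Dcn was tested, and the sums over libraries ran from 2.45 to 4.14 RPKM. The immune sum was 16.7 to 18.6 RPKM with DMSO and 32.7 to 33.2 RPKM with T-5224, from Cd68, a lysosomal protein gene that epithelial cells also express, and 7.10 to 10.5 against 7.75 to 8.33 RPKM with SB431542. The endothelial sum went from 10.7 to 11.8 RPKM down to 4.11 to 4.67 RPKM with T-5224, and from 5.24 to 6.57 RPKM down to 2.60 to 2.83 RPKM with SB431542, with Pecam1 the only marker tested.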

How the data were processed

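RNA of ASZ001 cells was sequenced from TruSeq Stranded mRNA libraries. Alignment by the authors was to mm9, with TopHat. The deposited RPKM come from HOMER's analyzeRepeats.pl, and the authors' own comparison used DESeq2 on counts, which were not analysed here. All 10 value columns were used and 0 were left out. Rows with a date in place of a gene symbol were removed (22 and 23). The T-5224 table numbers its DMSO columns 1 and 2, and the labels number those libraries 4 and 5, so these columns were matched to their group only.

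Testing used limma 3.58.1 (R 4.3.3) and took genes that averaged 1 RPKM or more in a table. Values entered as log2(RPKM + 0.5), variances were moderated by empirical Bayes along their trend with mean level, and p-values were adjusted after Benjamini and Hochberg across the tested genes. A gene was said to change where its adjusted p was under 0.05, and to be past 2-fold where its log2 fold change was also above 1 or below -1. The procedure was tested on simulated data in which all planted changes were larger than 2-fold, so calls of smaller changes were not covered. Genes under the limit were fitted together with all listed genes.

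The members and lists were chosen with earlier results of these data known. Of the transport lists, genes past 2-fold and the 3 most abundant were named, of the other lists up to 2 rises and 2 falls, and for each member the nearest profiles and the nearest 2 protein-coding genes on each side. The values of 1 gene of the transport lists are not reported here. Depth was estimated from the steps of low RPKM values in short genes whose GENCODE and RefSeq lengths agree, where every value used lay within 0.05 of a whole read. Read numbers of single genes derived from it are approximate. Alternatives were the pseudocount, the limit on low values, centring, quantile normalization, the trend, the fold limit, the replicate block and leaving out each library.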

Additional observations from a re-analysis of the deposited data

How the results depend on the processing

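The log2 fold change of Car6 with T-5224 was 8.11 with a pseudocount of 0.1 and 6.46 with 1, and 7.03 to 7.25 when a library was left out. With quantile normalization that of Car12 was -0.28 and that of Car13 -1.04, so that 2 members were past 2-fold, as also with a limit of 1.5-fold (2), against 1. Leaving out a library gave -0.24 to -0.10 for Car12 and -0.99 to -0.86 for Car13. With SB431542 Car13 lay between -0.016 and 0.11 when a library was left out, turning negative without DMSO replicate 3 (-0.016). The cause of these shifts was not tested. The count of members changed with SB431542 was 0 under every alternative run.

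The count of 4 genes changed with SB431542 among the transport genes and Car5b was 2 to 5 when a library was left out and 7 with unadjusted p. With the replicate block it was 2. Same-numbered libraries did not deviate together (correlations of -0.148, 0.151 and -0.0949), so the numbers were not taken as pairs. The count of 14 among these genes with T-5224 was 8 with a mean of at least 5 RPKM, where fewer genes are tested. With no limit on low values, where more genes are tested, it was 18. Leaving out a library leaves 1 library in a group there, so no count is given for it. No paired analysis was possible because the T-5224 libraries and their DMSO libraries share no replicate number in the labels. Levels near 10 reads limit Car6 without T-5224 and Car9 throughout.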
